A study of Mus musculus with 9 samples.

Results

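Keratins are the proteins of the intermediate filaments of epithelial cells. A filament is built from pairs of 1 type I and 1 type II keratin, so cells make members of both types together, and the epithelia of the eye and its lids differ in the members they make. The corneal epithelium is known for Krt12, basal layers for Krt5 and Krt14, the conjunctiva and other moist linings for Krt4 and Krt13, simple and glandular epithelia for Krt7, Krt8, Krt18 and Krt19, cornified skin for Krt1 and Krt10, and hair follicles for the root sheath and hair keratins. Krt6a, Krt6b, Krt16 and Krt17 are called stress keratins because injured epidermis switches them on.

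The keratin genes described here are the protein-coding genes whose symbol is Krt followed by a digit, so genes of keratin-associated proteins are not among them. There were 28 such genes among the 22587 genes whose RNA was sequenced. The tissue was the whole eyeball, and the mice were females of BALB/C, an inbred albino strain. The T.chuii group (3 libraries) had intraperitoneal scopolamine and the green microalga Tetraselmis chuii at 300 mg/kg. The DES group (3 libraries) had the same injections with water, and the CON group (3 libraries) had water and no injection. Scopolamine, a blocker of muscarinic acetylcholine receptors, is used to induce dry eye, and because CON mice were not injected, the drug and the act of injection cannot be told apart. Mice were 6 weeks old at the start, treatment ran for 2 weeks, and tissue age was postnatal day 56. Whether each library was made from its own animal or from a pool is not stated in the labels. The file headers give each library 1 number, without saying what is numbered. A p-value here therefore reflects the scatter among libraries, part of which may be technical.

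All 28 keratin genes passed the filter on low counts, and 22 of them had a mean of at least 1 FPKM (fragments per kilobase of transcript, a length-scaled level) over the 9 libraries. By class, the tables held all 4 corneal and basal keratins looked for, all 7 conjunctival and simple keratins, all 4 stress keratins, 6 of 8 epidermal keratins, 2 of 9 root sheath keratins, 1 of 16 hair keratins and 4 of 6 others. Keratins missing from the tables were not analysed here. Each library held between 39.1 and 64.6 M reads, and the smallest count in any of the tables was 1.

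Libraries differed in their make-up within every group. Summed over 14 corneal epithelium markers that are not keratins, such as Aldh3a1, a crystallin-like enzyme of the cornea, levels were 20774, 6325 and 8928 CPM (read counts scaled to library size) in T.chuii libraries 1, 2 and 3, 21719, 9470 and 12538 CPM in DES, and 11626, 33993 and 14710 CPM in CON. Summed over 14 rod photoreceptor markers, levels were 10706, 35697 and 39858 CPM in T.chuii, 17914, 43504 and 40850 CPM in DES, and 34986, 18744 and 36192 CPM in CON. T.chuii 1, DES 1 and CON 2 were therefore the libraries with the most corneal and the least rod RNA of their groups. Other tissues differed between groups as well. Summed over the 11 lens genes in the tables, levels were 28342, 59745 and 11752 CPM in T.chuii, 43768, 386 and 39057 CPM in DES, and 288, 268 and 259 CPM in CON. For 14 fast skeletal muscle genes they were 16710, 7629 and 3416 CPM in T.chuii, 8275, 2289 and 1475 CPM in DES, and 2340, 846 and 1594 CPM in CON. Over 3 adipocyte genes they were 1559, 327 and 84.4 CPM in T.chuii, 38.5, 11.7 and 43.5 CPM in DES, and 29.5, 4.67 and 19.2 CPM in CON. All T.chuii libraries lay above all CON libraries in these 3 tissues, and their part in the keratin differences given below was not tested. In whole eyeballs, fewer cells of a type and less RNA per cell cannot be told apart.

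Promoter windows were available for 17 of the 28 keratin genes, and 4 are shown because their genes followed different libraries in the results below. Krt12 and Krt5 were highest in CON 2, and Krt7 and Krt8 were highest in DES 2. Each window runs from 250 bases before to 50 bases after the start site, is given on the coding strand, and comes from RefSeq for GRCm38.p6, the same assembly as the mm10 build used for the data. Capitals mark 4 motifs found on either strand. The first is TATAAA, known as the core of the box bound by the general transcription machinery. The second is GGGCGG, known from promoters bound by Sp family factors, and the third is CCACCC, known from those bound by Klf family factors. The last is TGANTCA, with any base in its middle, known from binding of Fos and Jun proteins. In Krt8 a match on each strand overlaps the other, giving a single run of capitals. The windows are chr11:99422210-99422509 (minus strand) for Krt12, chr15:101712856-101713155 (minus strand) for Krt5, chr15:101412153-101412452 (plus strand) for Krt7 and chr15:102004293-102004592 (minus strand) for Krt8.
Krt12: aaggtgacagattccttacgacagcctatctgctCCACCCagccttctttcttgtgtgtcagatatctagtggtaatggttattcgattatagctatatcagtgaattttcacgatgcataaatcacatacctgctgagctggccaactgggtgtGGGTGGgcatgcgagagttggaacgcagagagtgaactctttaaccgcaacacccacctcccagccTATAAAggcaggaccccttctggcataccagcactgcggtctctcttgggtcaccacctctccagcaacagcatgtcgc
Krt5: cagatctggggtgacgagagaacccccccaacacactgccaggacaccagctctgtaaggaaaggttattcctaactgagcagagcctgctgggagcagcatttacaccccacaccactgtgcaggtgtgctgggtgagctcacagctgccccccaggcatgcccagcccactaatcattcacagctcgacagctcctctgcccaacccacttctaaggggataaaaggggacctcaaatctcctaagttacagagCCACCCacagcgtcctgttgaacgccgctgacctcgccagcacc
Krt7: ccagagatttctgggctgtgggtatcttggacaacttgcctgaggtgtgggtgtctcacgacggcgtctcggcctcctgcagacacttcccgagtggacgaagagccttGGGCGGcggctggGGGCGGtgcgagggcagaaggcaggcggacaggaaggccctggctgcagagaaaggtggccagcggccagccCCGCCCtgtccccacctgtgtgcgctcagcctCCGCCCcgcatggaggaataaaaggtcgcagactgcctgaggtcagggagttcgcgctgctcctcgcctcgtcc
Krt8: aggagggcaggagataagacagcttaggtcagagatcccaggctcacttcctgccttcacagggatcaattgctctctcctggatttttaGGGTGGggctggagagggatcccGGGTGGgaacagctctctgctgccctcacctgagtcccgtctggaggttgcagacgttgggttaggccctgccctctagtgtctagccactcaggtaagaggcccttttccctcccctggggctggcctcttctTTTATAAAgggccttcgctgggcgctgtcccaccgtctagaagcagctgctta

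In Krt12 the TATAAA run begins at position -29 relative to the start base, and the window holds CCACCC on both strands. Krt7 holds 4 matches to GGGCGG and none of the other 3 motifs. Over the 18 keratin windows (1 gene, Krt13, has 2), TATAAA was found in 6, CCACCC in 10, TGANTCA in 2 and GGGCGG in 2. Both windows with TGANTCA were those of Krt13. Among all 32851 windows of the same length, TATAAA was found in 13.6%, CCACCC in 31.5%, TGANTCA in 7.81% and GGGCGG in 35.7%. These are matches of letters and were not tested.

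The keratin genes lie in 2 clusters. On chromosome 11, 13 type I genes lay between bases 99232761 and 100261029 of mm10, with Krt12 at chr11:99415664-99422593. On chromosome 15, 14 type II genes lay between bases 101348315 and 102004342, and the remaining type I gene, Krt18, followed at chr15:102028216-102032026. Genes of a cluster did not all share 1 pattern, since the type II genes Krt5, highest in CON 2, and Krt7, highest in DES 2, lie in the same one. Some neighbours did: Krt6b, Krt6a and Krt5, which follow each other, were all highest in CON 2 and lowest in T.chuii 2.

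Per transcript length, Krt12 was by far the most abundant keratin, with a mean of 7367 FPKM over the 9 libraries. Krt5 came next at 1485 FPKM, followed by Krt6a at 733.1 FPKM, Krt15 at 629.2 FPKM, Krt6b at 485 FPKM and Krt14 at 421.6 FPKM. Of the conjunctival and simple keratins, Krt19 stood at 146.7 FPKM, Krt13 at 135.9 FPKM, Krt4 at 121.5 FPKM, Krt18 at 78.2 FPKM, Krt7 at 46.8 FPKM and Krt8 at 35.5 FPKM, while Krt20 had 0.424 FPKM. The stress keratin Krt17, at 42.1 FPKM, lay between Krt7 and Krt8. Epidermal keratins were low, with 13.5 FPKM for Krt10 and 1.25 FPKM for Krt1, and the hair cortex keratin Krt33a had 0.137 FPKM. Neighbours in this order often overlapped in their ranges over libraries, as did Krt19, Krt13 and Krt4.

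**Figure D1:**
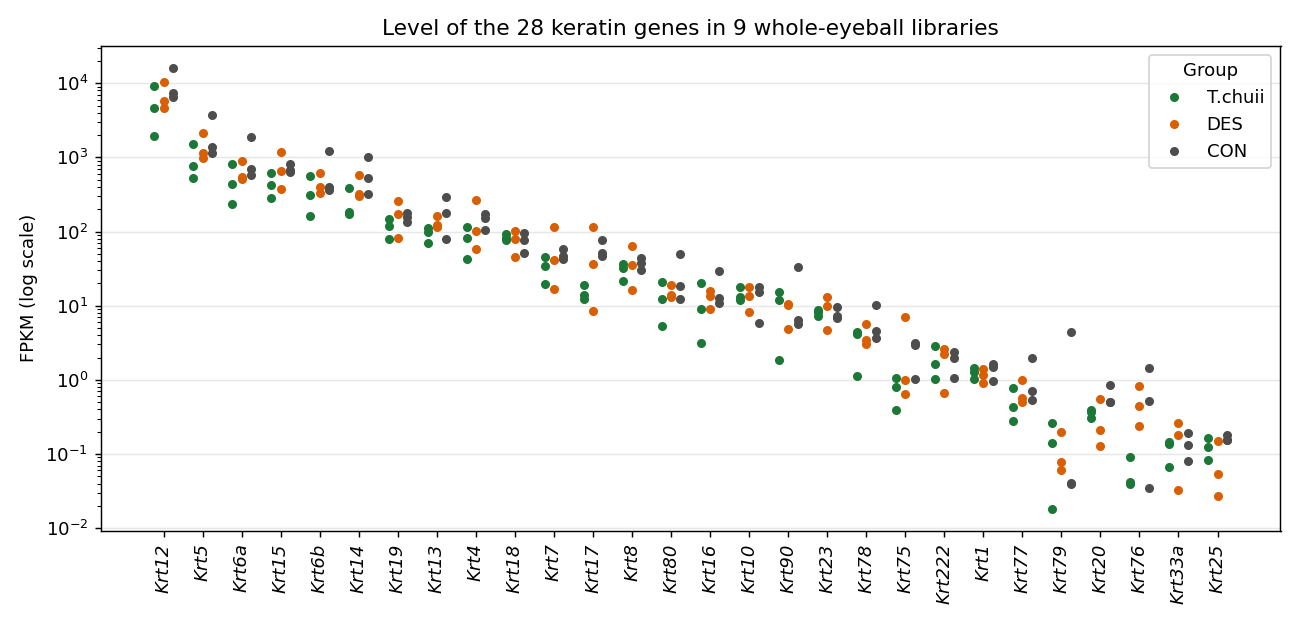
Level of each of the 28 keratin genes in FPKM on a log axis, in order of the mean over the 9 libraries, with 1 point per library coloured by group (T.chuii, DES and CON from left to right within a gene). Krt12 stands first with a mean of 7367 FPKM and Krt25 last with 0.122 FPKM.

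Keratins took a large share of all reads, and the share varied within groups. It was 2.67%, 0.914% and 1.43% in T.chuii libraries 1, 2 and 3, 3.11%, 1.84% and 1.91% in DES, and 2.02%, 5.08% and 2.37% in CON. Krt12 alone took between 0.413% of reads in T.chuii 2 and 3.05% in CON 2. Conjunctival and simple keratins together took 0.0575% to 0.167% of reads, and the single hair keratin at most 4.84e-05%.

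The corneal and basal keratins were led by Krt12, the defining filament protein of corneal epithelial cells, whose mutations cause Meesmann corneal dystrophy in humans. Krt12 had 19573, 3997 and 8412 CPM in T.chuii libraries 1, 2 and 3, 21142, 7792 and 12573 CPM in DES and 11580.4, 33865 and 13535 CPM in CON. CON 2 was highest and T.chuii 2 lowest, and the 3 groups overlapped. The summed corneal markers were likewise highest in CON 2, DES 1 and T.chuii 1, in that order, and lowest in T.chuii 2, and their part in the Krt12 level was not tested. The gene is overlapped by the long noncoding RNA A830036E02Rik (chr11:99417243-99423098), at 123.5 to 1122 CPM and likewise highest in CON 2 and lowest in T.chuii 2. The kit was stranded, but no strand setting for the counting step was found in the labels, so how reads of the overlap were assigned is uncertain. The same uncertainty holds for Krt6a, Krt80 and Krt222, overlapped by the long noncoding RNAs Gm49428, Gm35853 and Gm32385 in that order.

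Krt5 is the type II keratin of basal cells of stratified epithelia. In T.chuii libraries Krt5 stood at 3907, 1265 and 1685 CPM, in DES at 5219, 2336 and 2527 CPM and in CON at 2442, 9428 and 3015 CPM. Its order of libraries was close to that of Krt12: CON 2 was highest, DES 1 and T.chuii 1 were high in their groups, and the groups overlapped. Krt14 is the type I partner of Krt5 in basal cells. The CPM of Krt14 was 746, 340.2 and 278 in T.chuii, 596, 883 and 588 in DES and 505, 1884 and 856 in CON. CON 2 stood above every other library, and DES 2 rather than DES 1 was high in its group.

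Krt15 is a type I keratin of basal cells, known from the limbus at the edge of the cornea and from hair follicles. Levels of Krt15 were 559, 1163 and 726 CPM in T.chuii, against 714, 1881 and 1343 CPM in DES and 1053, 1337 and 1351 CPM in CON. Its order differed from that of Krt12, with DES 2 highest, T.chuii 1 lowest and DES 1 low in its group, and the groups overlapped. The FPKM ratio of Krt15 to Krt12 therefore ran from 0.0307 in T.chuii 1 to 0.313 in T.chuii 2, a 10.2-fold range within 1 group.

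The stress keratins split in the same way. Krt6a and Krt6b are near-identical type II genes: 43.6% of the 50-base stretches of the Krt6a transcript and 44.5% of those of Krt6b were found in the other, so how their reads were divided is uncertain. Krt6a reached 2156, 583 and 976 CPM in T.chuii, 2226, 1049.9 and 1441 CPM in DES and 1245, 4884 and 1551 CPM in CON. Krt6b had 1451, 401 and 683 CPM in T.chuii libraries 1, 2 and 3, 1535, 682 and 1056 CPM in DES and 773, 3141 and 885 CPM in CON. Both were highest in CON 2 and lowest in T.chuii 2. The FPKM ratio of Krt6a to Krt12 lay within 0.0861 to 0.119 in all 9 libraries, a 1.38-fold range, whereas the levels of Krt12 themselves spanned 8.5-fold in CPM.

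Krt16 and Krt17 are type I keratins that injured epidermis makes together with Krt6. Of the 50-base stretches of the Krt16 transcript 12.4% were found in Krt14, as were 3.66% of those of Krt17. Krt14 averaged 742 CPM over the 9 libraries and Krt16 23.3 CPM, so how shared reads were divided is uncertain. In T.chuii libraries Krt16 stood at 37.1, 5.52 and 13.8 CPM, in DES at 15.7, 19.8 and 29.5 CPM and in CON at 18.9, 53.2 and 16.5 CPM. The CPM of Krt17 was 22.4, 32.3 and 21.0 in T.chuii, 14.9, 165 and 66.6 in DES and 69.4, 135 and 77.2 in CON. Krt16 was highest in CON 2 and lowest in T.chuii 2, while Krt17 was highest in DES 2 and lowest in DES 1. All 3 T.chuii libraries lay below all 3 CON libraries for Krt17, but DES libraries lay on both sides of T.chuii. Relative to Krt6a, Krt17 had an FPKM ratio of 0.00974 in DES 1 and 0.229 in DES 2, a 23.5-fold range within 1 group.

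**Figure D2:**
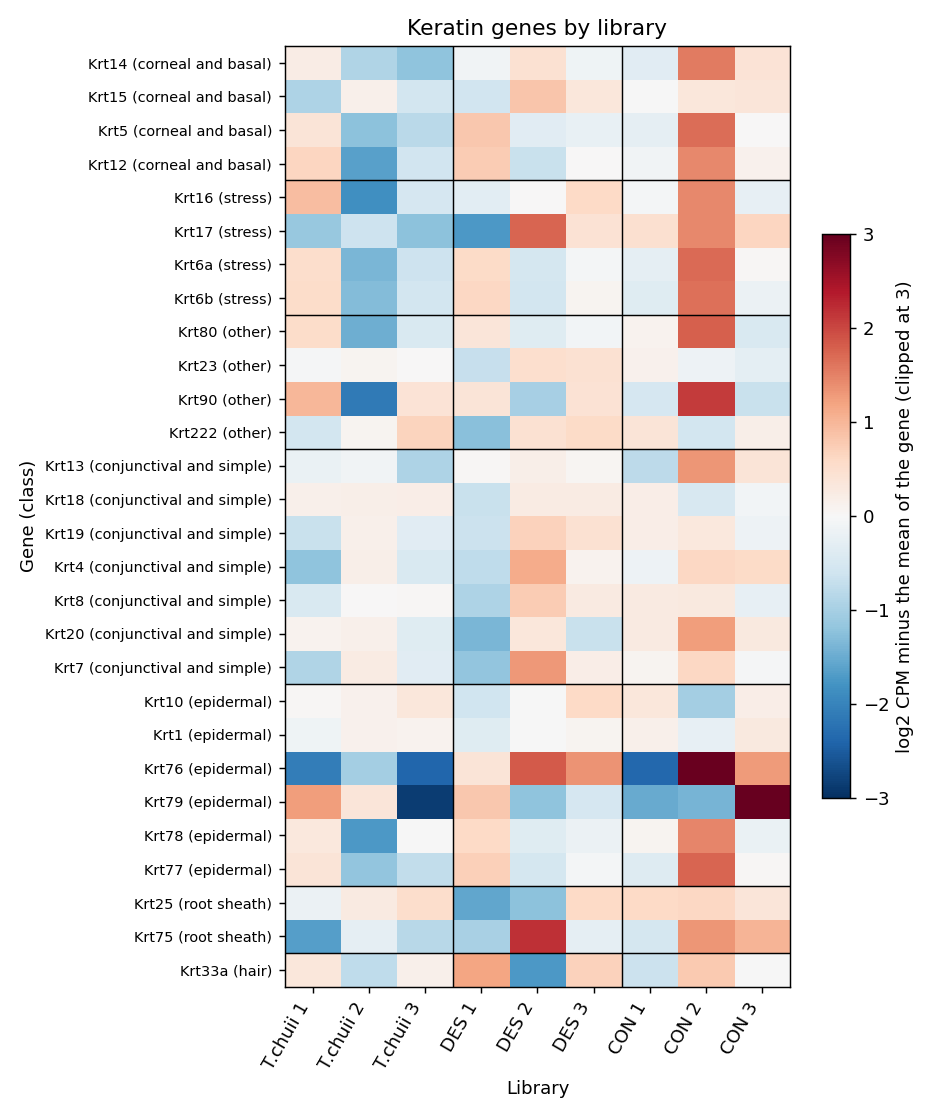
Each keratin gene's log2 CPM minus its mean over the 9 libraries, with genes down the page by class and libraries across in the order T.chuii, DES, CON. In Krt12, Krt5, Krt6a and Krt6b the libraries CON 2, DES 1 and T.chuii 1 are high, while in Krt15, Krt4, Krt7 and Krt17 DES 2 is highest and DES 1 or T.chuii 1 lowest.

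Among the conjunctival and simple keratins, Krt4 and Krt13 form the pair of suprabasal cells in moist, non-cornified linings. Levels of Krt4 were 105, 272 and 174 CPM in T.chuii, against 140.5, 517 and 258 CPM in DES and 218, 367 and 357 CPM in CON. Krt13 reached 189.8, 202 and 114 CPM in T.chuii, 224, 246 and 226 CPM in DES and 127, 546 and 283 CPM in CON. The pair did not run in parallel: Krt4 was highest in DES 2 and Krt13 in CON 2, and their FPKM ratio ranged from 0.427 in T.chuii 1 to 1.63 in DES 2. For Krt13 all 3 T.chuii libraries lay below all 3 DES libraries, by a narrow gap.

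Krt19, a type I keratin without the usual tail domain, and Krt18, the type I keratin of simple epithelia, were the other abundant members. Krt19 had 127, 223 and 159.8 CPM in T.chuii libraries 1, 2 and 3, 128, 325 and 278 CPM in DES and 233, 250.005 and 181 CPM in CON. In T.chuii libraries Krt18 stood at 125, 127 and 129 CPM, in DES at 70.2, 133 and 132 CPM and in CON at 128, 80.7 and 106 CPM. Both were highest in DES 2 and lowest or near lowest in DES 1, and all groups overlapped. Krt8, the type II partner of Krt18, lay between 33.2 CPM in DES 1 and 108 CPM in DES 2, and 26.9% of the 50-base stretches of its transcript were found in the pseudogene Krt8-ps. Krt7, a type II keratin of glandular and simple epithelia, lay between 30.1 CPM in DES 1 and 166 CPM in DES 2. Krt20, known from the gut, was low. The CPM of Krt20 was 0.839, 0.873 and 0.605 in T.chuii, 0.301, 0.994 and 0.497 in DES and 0.949, 1.88 and 0.956 in CON. All 3 T.chuii libraries lay below all 3 CON libraries, and DES lay on both sides.

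Goblet cell markers of the conjunctiva were also uneven between libraries. Of 8 such markers 5 were in the tables, with summed levels of 26.7, 55.7 and 28.6 CPM in T.chuii, 8.06, 156 and 41.0 CPM in DES, and 15.4, 54.4 and 29.5 CPM in CON. DES 2 was highest and DES 1 lowest, as for Krt7, Krt8 and Krt17. Muc5ac alone held 99.9 CPM of the sum in DES 2. Muc5b, Tff1 and Agr2 were also highest in DES 2 and lowest in DES 1, but Creb3l1 was highest in CON 1 at 3.91 CPM. The part of the goblet cell markers in the levels of Krt7, Krt8 and Krt17 was not tested.

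**Figure D3:**
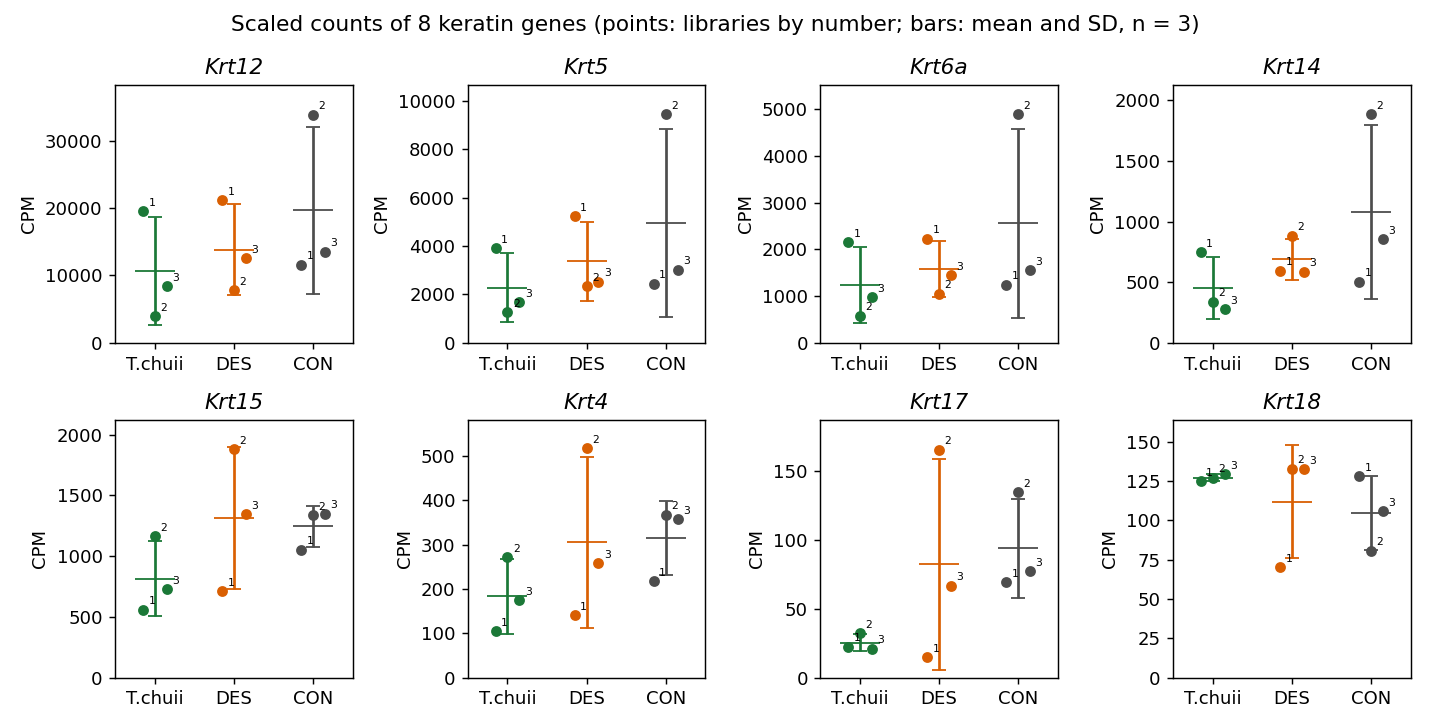
CPM in each library of 8 keratin genes (Krt12, Krt5, Krt6a, Krt14, Krt15, Krt4, Krt17 and Krt18), with T.chuii, DES and CON from left to right, 1 point per library marked by its replicate number, and bars for the group mean and SD (n = 3). CON 2 is the highest point for Krt12 (33865 CPM) and DES 2 the highest for Krt17 (165 CPM).

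Epidermal keratins were present at low levels. Krt10 is the type I and Krt1 the type II keratin of suprabasal epidermis. Levels of Krt10 were 31.5, 33.5 and 39.0 CPM in T.chuii, against 20.2, 30.2 and 46.2 CPM in DES and 38.5, 15.1 and 35.3 CPM in CON. Krt1 reached 2.94, 3.47 and 3.44 CPM in T.chuii, 2.47, 3.19 and 3.37 CPM in DES and 3.53, 2.69 and 3.89 CPM in CON. CON 2 was the lowest library for Krt10 and CON 3 the highest for Krt1, and both spanned less than Krt12, with Krt10 at 3.06-fold and Krt1 at 1.58-fold from lowest to highest library. Per length the pair was unequal, with an FPKM ratio of Krt10 to Krt1 between 6.07 and 15.4.

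Krt78 had 17.9, 4.30 and 14.1 CPM in T.chuii libraries 1, 2 and 3, 21.5, 11.1 and 12.6 CPM in DES and 15.3, 39.7 and 12.5 CPM in CON. In T.chuii libraries Krt77 stood at 2.61, 0.873 and 1.19 CPM, in DES at 3.25, 1.37 and 1.90 CPM and in CON at 1.52, 6.66 and 2.01 CPM. These type II keratins were highest in CON 2 and lowest in T.chuii 2, as Krt12 was. The CPM of Krt76 was 0.117, 0.240 and 0.0945 in T.chuii, 0.642, 1.75 and 1.24 in DES and 0.0949, 3.79 and 1.19 in CON. All 3 T.chuii libraries lay below all 3 DES libraries for Krt76, while CON 1 was as low as T.chuii and CON 2 was the highest of all. Krt79 is known in mice from the duct region of hair follicles. Levels of Krt79 were 0.652, 0.349 and 0.0378 CPM in T.chuii, against 0.481, 0.118 and 0.193 CPM in DES and 0.0949, 0.103 and 8.99 CPM in CON. CON 3 stood apart from the other 8 libraries. In the same library the meibomian gland genes Awat2, a wax synthase, and Far2, a fatty acyl reductase, were at 28.2 and 23.3 CPM, against at most 1.71 and 5.6 CPM elsewhere. The other 6 meibomian markers in the tables, such as Scd1 at 74.9 CPM in CON 3 and 194 CPM in T.chuii 1, were highest in other libraries. Summed over all 8, levels were 599, 766 and 896 CPM in T.chuii, 450, 889 and 772 CPM in DES, and 729, 469 and 873 CPM in CON. Elovl4 alone held 209, 598 and 801 CPM of these sums in T.chuii, 347, 817 and 691 CPM in DES, and 648, 332 and 678 CPM in CON. It was lowest of its group in T.chuii 1, DES 1 and CON 2, as the rod markers were, so the sum is a poor measure of the gland. The part of the meibomian genes in the Krt79 level was not tested. Of 12 cornified epidermis markers 7 were in the tables, with summed levels of 11.8 to 64.5 CPM in T.chuii, 26.5 to 44.8 CPM in DES and 33.8 to 75.7 CPM in CON. Cnfn alone held 41.2, 0.480 and 23.7 CPM of these sums in T.chuii, 13.6, 6.22 and 26.1 CPM in DES, and 15.5, 43.1 and 14.5 CPM in CON. Sbsn lay between 3.95 and 6.57 CPM, and Krtdap and Dmkn were highest in CON 3, so this sum is a poor measure of cornified skin.

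The root sheath keratin Krt75 belongs to the companion layer of the hair follicle. Krt75 reached 1.49, 3.86 and 2.61 CPM in T.chuii, 2.37, 21.5 and 3.87 CPM in DES and 3.27, 11.8 and 9.48 CPM in CON. DES 2 was highest, and the groups overlapped. Krt25 belongs to the inner root sheath. Krt25 had 0.210, 0.284 and 0.340 CPM in T.chuii libraries 1, 2 and 3, 0.0802, 0.101 and 0.359 CPM in DES and 0.356, 0.362 and 0.302 CPM in CON. It rested on 4 to 21 reads per library, and the hair cortex keratin Krt33a on 4 to 25. Of the 50-base stretches of the Krt25 transcript, 0.515% were found in Krt15. Because Krt15 had 23982 to 111606 reads per library, whether the few reads of Krt25 were its own is uncertain. In T.chuii libraries Krt33a stood at 0.280, 0.131 and 0.246 CPM, in DES at 0.501, 0.0674 and 0.359 CPM and in CON at 0.142, 0.379 and 0.218 CPM. Of 12 hair shaft markers 5 were in the tables, with summed levels of 47.3 to 65.3 CPM in T.chuii, 50.5 to 68.0 CPM in DES and 45.7 to 80.7 CPM in CON. The largest part of every sum was Selenbp1, at 25.9 to 46.8 CPM, while Tchh lay between 2.84 and 5.32 CPM.

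The remaining 4 keratins, Krt80, Krt90, Krt23 and Krt222, belong to none of these classes. The CPM of Krt80 was 74.0, 18.2 and 36.8 in T.chuii, 65.2, 39.2 and 47.4 in DES and 54.8, 176 and 37.1 in CON. Levels of Krt90 were 44.8, 5.17 and 29.8 CPM in T.chuii, against 29.6, 11.2 and 30.4 CPM in DES and 15.8, 96.2 and 14.1 CPM in CON. Both were highest in CON 2 and lowest in T.chuii 2. Krt23 reached 12.9, 14.01 and 13.4 CPM in T.chuii, 8.22, 18.9 and 18.2 CPM in DES and 14.5, 12.0 and 10.9 CPM in CON. Krt222 had 3.80, 5.89 and 8.93 CPM in T.chuii libraries 1, 2 and 3, 2.35, 7.68 and 8.36 CPM in DES and 7.35, 3.84 and 6.32 CPM in CON. Krt23 was highest in DES 2 and Krt222 in T.chuii 3, and both were lowest in DES 1.

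Counted over all 28 keratins, the highest library was CON 2 for 14, DES 2 for 9 and CON 3 for 2, with 1 each in DES 1, DES 3 and T.chuii 3. The lowest library was T.chuii 2 for 9, DES 1 for 9, T.chuii 1 for 4, T.chuii 3 for 4, and 1 each in DES 2 and CON 2. A T.chuii library was thus the lowest for 17 of 28, with 9 of these in T.chuii 2. None of these counts was made over all genes, so they cannot be read as particular to keratins. The 14 that peaked in CON 2 included Krt12, Krt5, Krt14, Krt6a and Krt6b, and the 9 that peaked in DES 2 included Krt15, Krt4, Krt17 and the simple keratins Krt7, Krt8, Krt18 and Krt19.

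Summed FPKM of the 14 type I genes spanned 5.85-fold and that of the 14 type II genes 6.46-fold, but their ratio lay between 2.54 in CON 2 and 3.41 in CON 1, a 1.34-fold range. That narrow range rested on Krt12: without it the ratio ranged from 0.26 in DES 1 to 1.06 in T.chuii 2, a 4.08-fold range.

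**Figure D4:**
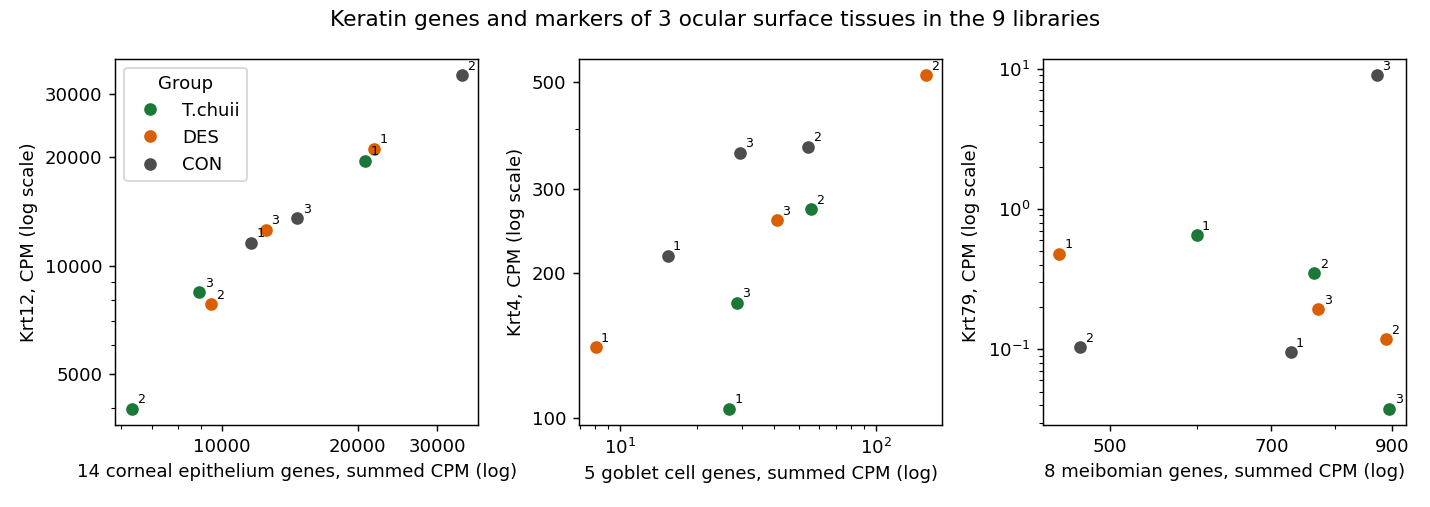
Each library's Krt12 CPM against the summed CPM of 14 corneal epithelium markers, Krt4 against that of 5 goblet cell markers, and Krt79 against that of 8 meibomian gland markers, on log axes, coloured by group and marked by replicate number. CON 2 is farthest up and right in the first panel and DES 2 in the second, while in the third CON 3 (8.99 CPM of Krt79) is highest but 2 libraries lie further right. The sum of the third panel includes Elovl4, at 678 CPM in CON 3.

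The first comparison, of DES with CON mice, asks what the scopolamine injections changed. None of the 28 keratins passed an adjusted p of 0.05 in limma-voom, and neither did any of the 21287 genes tested (0%). By point estimate 23 keratins were lower and 5 higher in DES, with a median log2 difference of -0.29, where 52.4% of all genes were lower, 47.6% were higher and their median was -0.02. At an unadjusted p under 0.05 there were 2 keratins, against 1.1% of all genes, and limma-trend on FPKM, with a pseudocount of 0.1, also called 0 genes, with an unadjusted p under 0.05 for 2 keratins and 1.38% of all genes. No keratin separated the 3 DES from the 3 CON libraries, while 2% of all genes did so as higher and 1.65% as lower in DES.

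Krt12 averaged 13836 ± 6764 CPM in DES and 19660 ± 12340 CPM in CON (SD, n = 3 each), and its log2 difference was -0.45 ± 0.63 (SE), with a 95% interval of -1.84 to 0.93. Krt20 had a log2 difference of -1.14 ± 0.47 and an adjusted p of 1 in limma-voom. For Krt25 the log2 difference was -1.21 ± 0.52, with an adjusted p of 1 in limma-voom, and for Krt17 it was -0.71 ± 0.69. Krt20 moved to -0.73 without DES 1, Krt25 to -1.82 without DES 3, and Krt17 to 0.22 without DES 1. The direction of the class rested on CON 2: without it 19 of 28 keratins were higher in DES and the median was 0.07, and without DES 1 there were 12 higher and 16 lower, with a median of -0.14. Without CON 1 the median was -0.70. It was -0.09 with the corneal marker level as a covariate, and 0.18 without CON 2, DES 1 and T.chuii 1 together. The corneal marker sum was also highest in CON 2, and its part in the keratin levels was not tested.

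The second comparison, of T.chuii with DES mice, asks what the alga changed in injected animals. No keratin and none of the 21287 genes (0%) passed an adjusted p of 0.05 in limma-voom. By point estimate 22 keratins were lower and 6 higher in T.chuii, with a median log2 difference of -0.47, where 54.9% of all genes were lower, 45.1% were higher and their median was -0.03. At an unadjusted p under 0.05 there was 1 keratin, against 1.09% of all genes, and limma-trend on FPKM again called 0 genes, with an unadjusted p under 0.05 for 1 keratin and 1.25% of all genes. In Krt76 and Krt13 the T.chuii libraries lay below all DES libraries, which was true of 2.49% of all genes, and no keratin lay above all DES libraries, as 2.3% of all genes did.

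Krt12 averaged 10661 ± 8028 CPM in T.chuii and 13836 ± 6764 CPM in DES (SD, n = 3 each), a log2 difference of -0.55 ± 0.62 with a 95% interval of -1.91 to 0.82. Krt76 had a log2 difference of -2.93 ± 1.15 and an adjusted p of 0.9999 in limma-voom, on levels under 2 CPM in all 6 libraries. The log2 difference of Krt15 was -0.64 ± 0.38 and that of Krt25 was 0.92 ± 0.53. Leaving out 1 library at a time moved Krt15 between -1.02 without DES 1 and -0.32 without DES 2, and Krt25 between 0.55 without DES 1 and 1.52 without DES 3. Without T.chuii 2 the median over keratins was -0.04, with 16 lower and 12 higher, with the corneal marker level as a covariate it was -0.06, and without DES 1 it was -0.25. It was farther from 0 without T.chuii 1, at -0.66, and without CON 2, DES 1 and T.chuii 1 together, at -0.67 with 24 of 27 lower.

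Same-numbered T.chuii and DES libraries were also compared as pairs, although no label states that they were paired. T.chuii 1 and DES 1 both had the most corneal RNA of their groups, and the part of this in the pair counts was not tested. In all 3 pairs 11 keratins were lower in T.chuii, among them Krt12, Krt5, Krt15, Krt6a, Krt6b, Krt4, Krt13, Krt19 and Krt76, which was true of 15.1% of all genes. Krt1 was higher in all 3 pairs, as were 10.5% of all genes, and the other 16 keratins were mixed. With the replicate number as a block in limma-voom, Krt12 had a log2 difference of -0.57 ± 0.63, and 5 keratins, against 1.95% of all genes, had an unadjusted p under 0.05. With the block and only these 2 groups, a fit chosen after seeing the data, Krt12 stood at -0.56 ± 0.24, and 9 keratins, against 6.05% of all genes, had an unadjusted p under 0.05. No keratin passed after adjustment in either fit: the smallest adjusted p in the 2-group blocked limma-voom fit was 0.1078, for Krt76, whose adjusted p lay between 0.7529 and 1 in the other alternatives.

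The third comparison set T.chuii against CON mice and shares its libraries with the other two. No keratin and no gene of the 21287 (0%) passed an adjusted p of 0.05 in limma-voom. By point estimate 24 keratins were lower and 4 higher in T.chuii, with a median log2 difference of -0.75, where 55.4% of all genes were lower, 44.6% were higher and their median was -0.04. At an unadjusted p under 0.05 there were 2 keratins, against 4.28% of all genes, and limma-trend on FPKM called 0 genes, with an unadjusted p under 0.05 for 3 keratins and 5.09% of all genes. Krt17 and Krt20 were lower in all 3 T.chuii libraries than in any CON library, as were 2.97% of all genes, and no keratin was higher in all 3, as 5.45% of all genes were.

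Krt17 averaged 25.2 ± 6.1 CPM in T.chuii and 93.8 ± 35.7 CPM in CON (SD, n = 3 each), a log2 difference of -1.85 ± 0.70 with an adjusted p of 0.9857 in limma-voom. For Krt14 the log2 difference was -1.15 ± 0.49 with the same adjusted p in limma-voom. The difference was -1.0 ± 0.62 for Krt12, with a 95% interval of -2.37 to 0.37, and -2.48 ± 1.16 for Krt76. Without CON 2, Krt14 stood at -0.65, Krt12 at -0.52 and Krt76 at -1.35. Krt12 stood at -0.36 without T.chuii 2 and at -1.59 without T.chuii 1, and Krt76 at -3.84 without CON 1. The median over keratins was -0.33 without CON 2, -0.41 without T.chuii 2, -0.32 with the corneal marker level as a covariate, and -0.38 without CON 2, DES 1 and T.chuii 1 together. It was farther from 0 without CON 1, at -1.08, and without T.chuii 1, at -0.98.

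**Figure D5:**
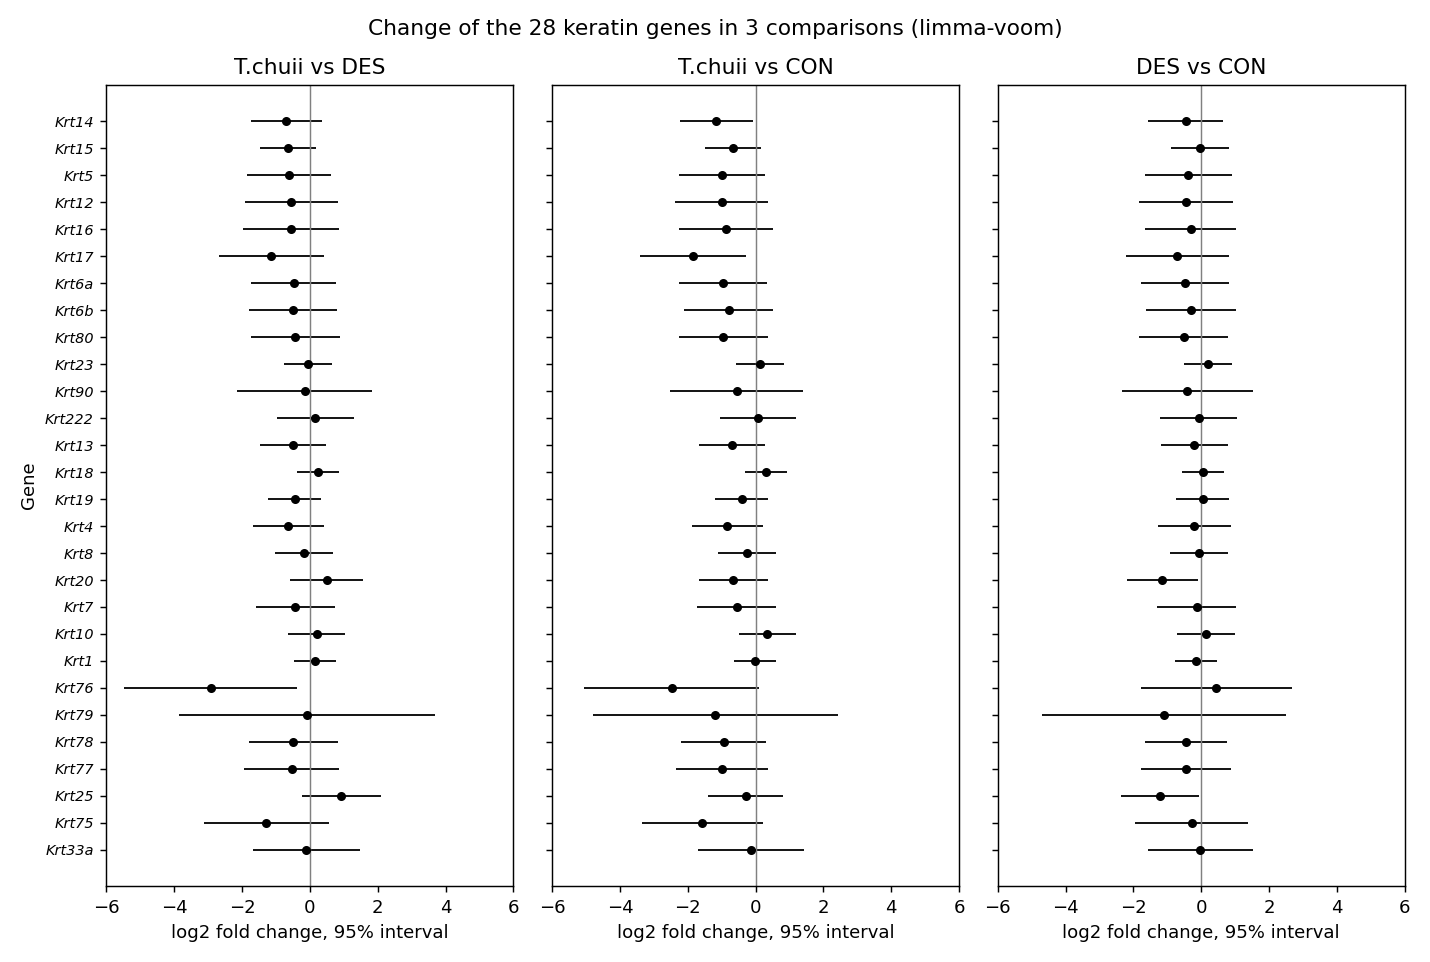
Log2 fold changes of the 28 keratins (points) with 95% intervals from limma-voom, genes down the page by class, for T.chuii against DES, T.chuii against CON and DES against CON. No adjusted p reached the threshold, and the medians over keratins were -0.47, -0.75 and -0.29 in that order of panels.

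Keratin filaments are anchored at desmosomes and hemidesmosomes, and 25 of 26 genes of these structures were in the tables. None of the 25 passed the threshold in any comparison, and neither did any of the 21287 genes tested (0%). Jup encodes plakoglobin, a desmosome protein that links cadherins to keratin, and averaged 83.1 ± 51.1 CPM in T.chuii, 127 ± 34.7 CPM in DES and 224 ± 110 CPM in CON (SD, n = 3 each). Its log2 difference was -1.46 ± 0.47 for T.chuii against CON, with an adjusted p of 0.9857 in limma-voom. Lamb3, a laminin chain of the hemidesmosome's anchoring filament, had a log2 difference of -1.23 ± 0.46, and the desmosomal cadherin Dsg1b one of -1.19 ± 0.53, in the same comparison. With the corneal marker level as a covariate, Jup stood at -0.75, Lamb3 at -0.70 and Dsg1b at -0.28. Dsg1b stood at -0.57 without T.chuii 2.

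By point estimate 23 of the 25 were lower in DES than in CON with a median log2 difference of -0.43. Over all genes 52.4% were lower, with a median of -0.02. Jup stood at -0.71 ± 0.48 in this comparison, and Pkp1 and Dsp, both desmosomal plaque proteins, at -0.63 ± 0.47 and -0.63 ± 0.48. Without CON 2 these were -0.38 for Jup, -0.20 for Pkp1 and -0.21 for Dsp. Against DES, 20 of the 25 were lower in T.chuii with a median of -0.37, where 54.9% of all genes were lower and their median was -0.03. Dsg2 stood at -0.62 ± 0.36, Jup at -0.75 ± 0.46 and Dsg1b at -0.86 ± 0.54. Without T.chuii 2 these were -0.42 for Dsg2, -0.38 for Jup and -0.28 for Dsg1b. Against CON, 22 of the 25 were lower in T.chuii with a median of -0.90, where 55.4% of all genes were lower and their median was -0.04. Summed over the list, levels were 5042, 1789 and 2704 CPM in T.chuii, 5807, 2963 and 3842 CPM in DES, and 3887, 8325 and 3615 CPM in CON. The sum was thus high in the same libraries as Krt12, but Perp alone held 2663 CPM of it in T.chuii 1, 2896 CPM in DES 1 and 3593 CPM in CON 2. Not every gene followed: Pkp2 was highest in T.chuii 2 at 9.23 CPM, and Dsg2 was higher in DES 2 than in DES 1.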

How the data were processed

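RNA from whole eyeballs was sequenced from 9 libraries in 3 groups, read from the sample titles. The authors deposited a read count and an FPKM value per gene and library, per the file headers. The submitters' processing notes name the tools StringTie 2.1.3b, HISAT2 2.1.0, Trimmomatic 0.38, Bowtie2 2.3.4.1 and FastQC 0.11.7 and the build mm10. For parameters and the strand setting of counting, the sources used here give nothing. Because the transcript field takes up a variable number of cells, both values were located by counting back from each row's last cell.

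The filter asked for a CPM worth 10 reads at median library size in 3 or more libraries, and for 15 reads in total, and kept 21287 genes. Scaling used trimmed means of M-values (own code). Differences were tested two-sided on the counts by limma-voom (R 4.3.3, limma 3.58.1) in a single fit of 9 libraries and 3 group means, leaving 6 degrees of freedom for the spread, and p-values were adjusted over all genes by Benjamini-Hochberg at 0.05. The code was checked on simulated counts. CPM in the text uses these scaling factors. FPKM was used only to compare genes with each other, for ratios, and in limma-trend on log2(FPKM + 0.1) and log2(FPKM + 1). Python 3.11.15 with pandas 2.3.3 parsed the tables.

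The members, their classes and the lists of markers and anchoring genes were chosen with earlier results of these data known. Named were the members with the highest mean FPKM, up to 4 in each class, the 3 with the smallest p in each comparison, and 3 anchoring genes in each comparison. Krt79, the meibomian genes Awat2, Far2, Scd1 and Elovl4, and the hair shaft list gene Selenbp1 were added after their values were seen. So were the anchoring genes Perp and Pkp2, the goblet markers, and the epidermis markers Cnfn, Sbsn and Dmkn. Shared stretches were counted between GENCODE M21 transcripts, and promoters came from RefSeq for GRCm38.p6.

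Titles number the libraries 1 to 3 in each group. Deviations from the group means of same-numbered T.chuii and DES libraries correlated at 0.558, 0.342 and 0.17 across genes. For DES with CON and for T.chuii with CON, values lay between -0.371 and 0.293. The correlations of T.chuii with DES were taken as a reason to compare these libraries as pairs, but a correlation from the same data cannot show that libraries were paired by design. Which libraries formed a pair was set by the numbers in the titles only. In the file headers the CON libraries carry the numbers 1, 4 and 5, the DES libraries 1, 2 and 4, and the T.chuii libraries 3, 4 and 5. Libraries of DES and T.chuii with the same title number thus carry different header numbers. Depth was 39.1 to 64.6 M reads per library, and precision at these depths is limited by the spread between libraries for all but the lowest members. Alternatives were other scaling, no filter, both FPKM fits, a replicate block, 2-group fits, a corneal marker covariate, and leaving out libraries singly or CON 2, DES 1 and T.chuii 1 together.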

Additional observations from a re-analysis of the deposited data

How the results depend on the processing

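Over 18 alternatives, the count of keratin genes and of anchoring genes called stayed at 0 in all 108 values, including the replicate block (0 called with all 9 libraries, and 0 with only the 2 groups compared, a fit chosen after seeing the data). Treating same-numbered T.chuii and DES libraries as pairs changed no call for a keratin. Over all genes, where 0 were called as reported, DES against CON gave 15 without DES 2. T.chuii against CON gave 17 without DES 2, 12 with only the 2 groups (12 also with the block added) and 1 without CON 2, DES 1 and T.chuii 1. T.chuii against DES gave 1 without those 3 libraries and 2 with the block and only the 2 groups. None of these was a keratin or anchoring gene. Single-gene directions held in 372 of 378 values. The reversed log2 differences were as follows, and the cause was not tested. With the corneal marker covariate, Krt12 stood at 0.065 for T.chuii against DES and at 0.029 for T.chuii against CON. Without CON 2, DES 1 and T.chuii 1 together, Krt17 stood at 0.50 for DES against CON. When each library was left out in turn, Krt12 ranged from -0.80 to 0.026 for DES against CON and from -1.13 to 0.053 for T.chuii against DES, and Krt17 ranged from -1.53 to 0.22 for DES against CON. With 3 libraries per group the intervals were wide, so the absence of calls does not show that keratin levels were unchanged. Krt25, Krt33a, Krt76 and Krt79 rest on few reads in most libraries.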

Other observations

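Genes with keratin in their names that are not keratin genes had values of their own. The pseudogene Krt8-ps lay between 0.762 CPM in DES 1 and 3.06 CPM in CON 1. Krtdap, a keratinocyte differentiation gene of skin, had 0.839, 0.371 and 0.265 CPM in T.chuii, 0.1, 1.96 and 0.525 CPM in DES, and 0.451, 0.792 and 5.08 CPM in CON, where CON 3 was the highest library, as it was for Krt79. Krtcap2 lay between 38.1 and 80.4 CPM and Krtcap3 between 6.58 and 26.0 CPM.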
